A study of Apis mellifera with 4 samples.

Results

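The C-minus odorant binding proteins of the honey bee, Apis mellifera, were followed in the antennae of males (drones) and of females (workers). The genes were taken by name: every gene whose array name was AmOBP with a number of 13 or more, which gave 7 genes, AmOBP13 to AmOBP19, of 19 odorant binding proteins and 313 genes on the array. The rule uses names only, but it was set with earlier results of these data known. The array names carry no subfamily label, and the cysteine pattern that defines the subfamily was not checked here, so "C-minus" rests on the numbering alone.

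Odorant binding proteins are small secreted proteins that support cells release into the fluid around olfactory neurons. They bind small hydrophobic odorants and pheromones there, close to the receptors on the neurons. Classic members share a conserved set of cysteines joined in disulfide bridges, and C-minus members lack a pair of these. The probes were oligonucleotides of 70 bases. Probe and protein sequences were not used here, and cross-hybridization between related members was not tested.

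Each of 4 two-colour arrays compared 1 pool of RNA from mature drone antennae with 1 pool from worker antennae. Per the labels, bees were taken at the hive entrance and their whole antennae pooled, 50 sets to a pool, and no treatment or genotype is named. The design text says that the pools were collected independently, so the spread between arrays covers pools and hybridizations together. The sources used here do not give the age, colony or strain of the bees. RNA of whole antennae mixes neurons, support cells and other tissue, so fewer cells of a type and less RNA per cell cannot be told apart.

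By the dye recorded in the label fields, drone RNA was green (Cy3) on arrays 1 and 3 and red (Cy5) on arrays 2 and 4. The written protocols match that on array 1 alone and swap both dyes on arrays 2, 3 and 4. Across all genes, ratios turned by the first source correlated between arrays at r from 0.39 to 0.78 over 6 pairs. Turned by the second, the pairs with array 1 were at r = -0.78, -0.76 and -0.42, and the pairs without it were unchanged. These correlations bear on array 1 against the others and cannot tell which overall direction is right. Every direction below follows the label fields. With the dyes of the protocol texts the sign of 6 of the 7 members turned, 0 of the 7 were called, and limma called 0% of the array (0 of 313 genes, against 8 with an unadjusted p below 0.05).

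Antennal identity was checked first. The 4 antennal markers (the co-receptor AmOr002, the membrane protein AmSNMP, AmOBP01 and AmOBP02) were above the negative controls in both sexes. Of the 5 opsins, which mark eye tissue, 0 were above the controls on 3 or more arrays in either sex. Of these 5, 4 were above on no array in drone and 2 on no array in worker. The summed opsin signal ran from 172 to 2348 in drone and from 357 to 2657.5 in worker, so the ranges of the sexes overlapped.

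Values are given on 2 scales. A signal is the spot's brightness over its local background in scanner units, averaged over the 2 spots of a gene. A log2 ratio is drone over worker after loess normalization within each array, so a negative value means more in worker. The ± is limma's standard error over 4 arrays. Genes count as called when limma's p, adjusted over 313 genes after Benjamini and Hochberg, is under 0.05. A threshold for being above background was set on each array and channel at 2 SD over the mean of its negative control spots, leaving out the bright control oligo 4. Signals of different genes come from different probes and are not set against each other.

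**Figure D1:**
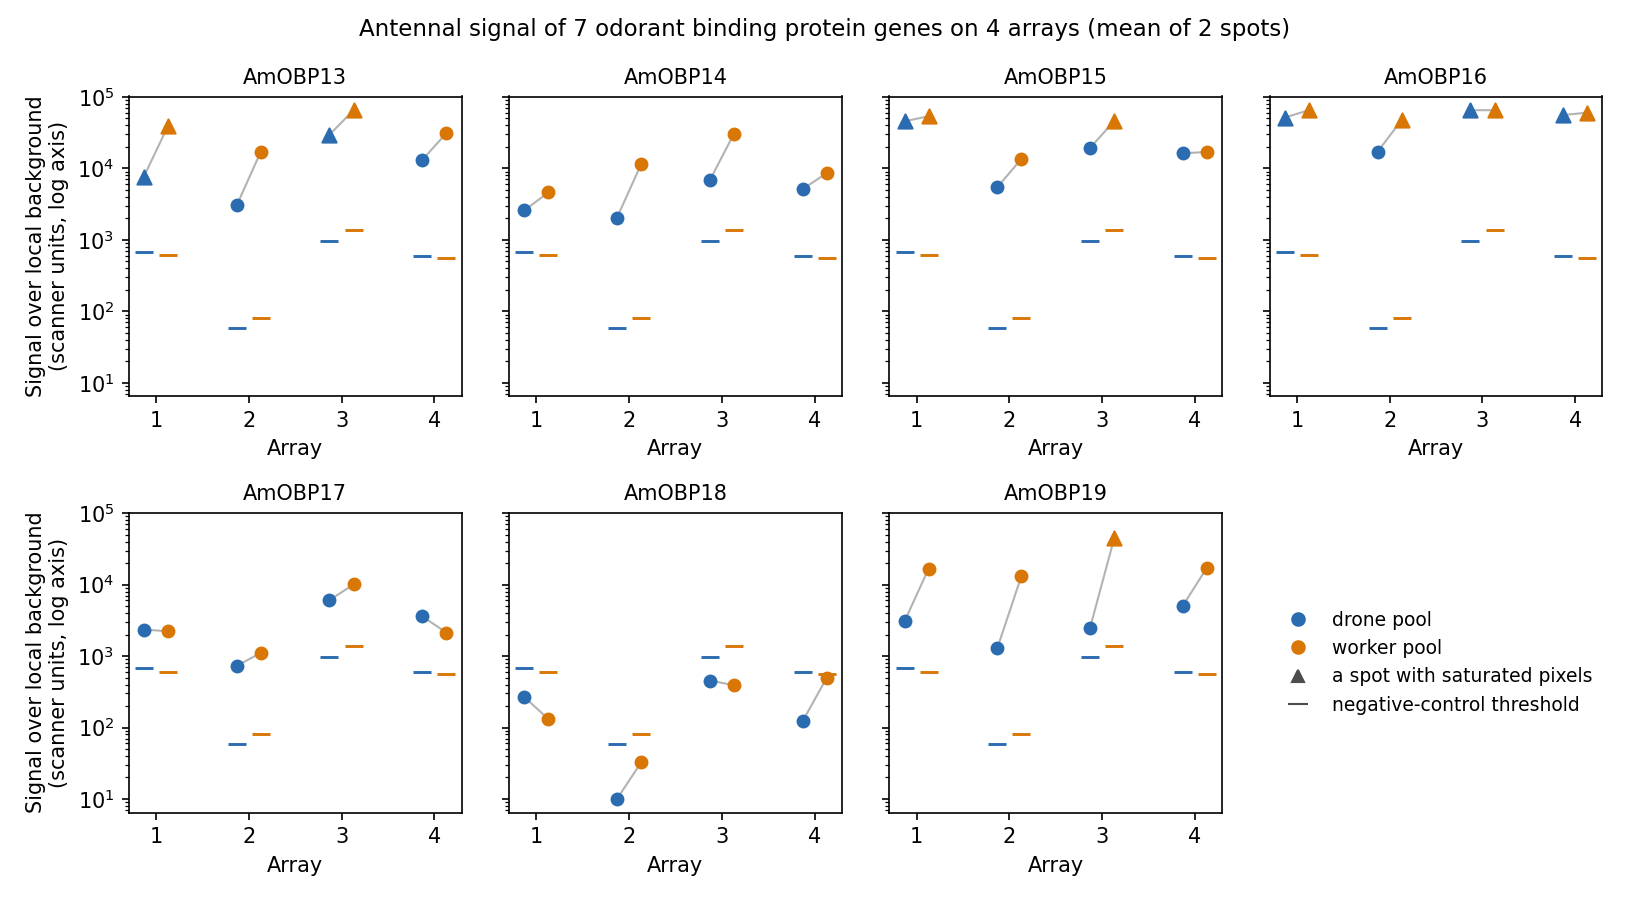
Signal over local background (log axis, scanner units, mean of 2 spots) of the 7 genes on arrays 1 to 4, drone in blue and worker in orange, with triangles where a spot held saturated pixels and short bars at the negative-control threshold. AmOBP18 lies below the bars on all 4 arrays in both sexes, and AmOBP13, AmOBP14, AmOBP15 and AmOBP19 are brighter in worker on all 4 arrays, while AmOBP16 reaches the end of the scale in both sexes on array 3.

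Of the 7 genes, 4 were higher in worker antennae (AmOBP19, AmOBP13, AmOBP14 and AmOBP15), 0 were higher in drone antennae, and 3 were not called. Over the whole array 11.8% of genes were called, 7.35% as higher in worker and 4.47% as higher in drone. Before adjustment 5 of the 7 had p under 0.05 on the worker side and 0 on the drone side, against 68 of the 313 genes in either direction. An unmoderated test called 1 of the 7 in worker, AmOBP19 (adjusted p = 0.0284), and 0 in drone. The 4 called genes spanned folds from 1.92 to 8.94, and after loess each had the same sign on 4 of 4 arrays. Before normalization the array 4 log2 ratios of AmOBP14 (-0.74) and AmOBP15 (-0.07) lay less far to worker than that array's median gene (-1.15). Relative to the typical gene, their worker-side sign on that array thus rests on loess. After loess 5 of 7 members were lower in drone on every array, the 4 called ones and AmOBP17, against 17.6% of all genes. The opposite pattern, drone above worker on all 4 arrays, was seen in 0 of the 7 and in 15% of all genes.

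AmOBP19 showed the largest sex difference of the 7. The drone signal was 3064, 1290.5, 2494.5 and 5086 on arrays 1 to 4, and its worker signal 16772.5, 13199.5, 44815 and 17320.5. Every worker value was above every drone value, and all 8 stood at 2.56 times their threshold or more. With the bright oligo 4 kept among the controls, AmOBP19 was above them on 1 of 4 arrays in drone and 4 of 4 in worker. Before any normalization the worker signal was 5.47, 10.2, 17.97 and 3.41 times the drone signal. After it the log2 ratio was -2.67, -3.27, -3.84 and -2.86, so all 4 arrays gave a large difference in the same direction. The mean was -3.16 ± 0.23 (n = 4), an 8.94-fold higher level in worker with a 95% interval from 6.11 to 13.1 (limma adjusted p = 2.69e-04). It ranked 4 of 313 genes from the worker end, and on each of the 4 arrays it had the lowest ratio of the 7 members.

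AmOBP13 came next. Drone pools gave signals of 7674, 3035, 29620 and 13121 for it, and worker pools 39465, 17127, 65355 and 31221. The worker channel was brighter on each array, although the 2 ranges overlap, since the drone value of array 3 exceeded the worker value of array 2. The log2 ratio was -2.49, -2.46, -1.13 and -2.20, with array 3 well apart from the others in size. On that array both worker spots had their foreground median at the end of the scanner's scale, with 74% and 76% of pixels saturated, and the spots differed by 0.80 in log2 ratio. The mean was -2.07 ± 0.26, or 4.20-fold higher in worker (interval 2.71 to 6.49, limma adjusted p = 0.00312). With those spots left out, an alternative added after seeing the data, it was -2.38 on 3 arrays (adjusted p = 8.61e-04).

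AmOBP14 is a C-minus protein whose crystal structure has been solved with odorants bound. It had no saturated pixel in any of its 8 spots, so its ratio is free of that limit. On arrays 1 to 4 the drone signal was 2574.5, 2037.5, 6788.5 and 5126, and the worker signal 4607.5, 11451.5, 30539.5 and 8585.5. The worker pool was brighter on all 4 arrays, by 1.79, 5.62, 4.50 and 1.67 times before normalization. With oligo 4 kept among the controls, AmOBP14 was above them on 2 of 4 arrays in drone and 3 of 4 in worker. After loess the log2 ratio was -1.06, -2.46, -1.91 and -1.91, the smallest on array 1. On array 4 it was -0.74 before normalization, less far to worker than that array's median gene (-1.15). The mean was -1.84 ± 0.25, or 3.57-fold higher in worker (interval 2.38 to 5.37, limma adjusted p = 0.00395).

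AmOBP15 showed a smaller difference. Its drone signal was 45645, 5441.5, 19347 and 16234.5, and its worker signal 53745.5, 13616, 46043 and 17005. Worker was brighter on each array, but on array 4 by only 1.05 times before normalization, a log2 ratio of -0.07. The median gene of that array lay further to worker, at -1.15. After loess the log2 ratio was -0.24, -1.35, -1.12 and -1.06, so the size of the array 4 value arose in normalization. On array 1, the value nearest to 0, up to 50% of a worker spot's pixels and up to 20% of a drone spot's were saturated. Only the spot at 50% had its worker median at the end of the scale. With that spot left out the mean stayed at -0.94. The mean was -0.94 ± 0.22, or 1.92-fold higher in worker (interval 1.33 to 2.78, limma adjusted p = 0.0379). The call was lost without array 2 (adjusted p = 0.252) and without array 3 (0.154), and on the authors' deposited ratios (0.0909). It stood in 9 of the 22 other settings that keep the label-field dyes.

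AmOBP16 was at the top of the scanner's range, and its ratio is bounded by that. As background, this protein and OBP18 have been studied as antennal proteins of bees that remove diseased brood. All 8 of its spots held saturated pixels in worker and 6 of 8 did in drone, with up to 96% and 82% of pixels affected. Drone signals of 51510.5, 17089, 65150 and 55851 stood beside worker signals of 65409, 47841.5, 65337 and 60325.5. The array with the least saturation, array 2, gave a log2 ratio of -1.56, and array 3, with both channels at the end of the scale, gave 0.01. Arrays 1 and 4 gave -0.34 and -0.87. The mean of -0.69 ± 0.27 was not called (limma adjusted p = 0.198, interval of the fold 1.02 to 2.54). With spots left out whose foreground median was at the end of the scale, arrays 2 and 4 remained at a mean of -1.26 (limma adjusted p = 0.0654). Both had drone in Cy5, so that mean has no dye swap. With spots left out for any saturated pixel, 0 arrays remained.

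AmOBP17 differed little between the sexes. Its drone signal was 2351, 729, 6075.5 and 3598.5, and its worker signal 2224, 1109, 10060.5 and 2131. Drone was brighter on arrays 1 and 4 and worker on arrays 2 and 3, and each of these values was at least 3.47 times its threshold. With the bright oligo 4 kept among the controls, AmOBP17 was above them on 0 of 4 arrays in drone and 1 of 4 in worker. After normalization the log2 ratio was -0.15, -0.29, -0.35 and -0.08, all to the worker side and all small. The mean was -0.22 ± 0.15 (limma adjusted p = 0.511), with a 95% interval from -0.59 to 0.15. In this setting the interval leaves out the mean ratios of the 4 called members, but it overlaps the interval of AmOBP15 (-1.47 to -0.41). Without loess the standard error of AmOBP17 was larger, 0.38 to 0.49, so that limit holds for the loess setting only.

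AmOBP18 was not well above background. Drone signals were 268, 10, 455 and 122, and worker signals 131.5, 32.5, 391 and 496.5. All 8 values were below the threshold of their channel, at 0.17 to 0.88 of it, and the brighter channel was Cy3 on each of the 4 arrays. No fold is given, and the fitted log2 ratio of -0.04 ± 0.17 (limma adjusted p = 0.936) carries no measured direction. A level below these controls was thus not detectable, and absence of the transcript was not shown.

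**Figure D2:**
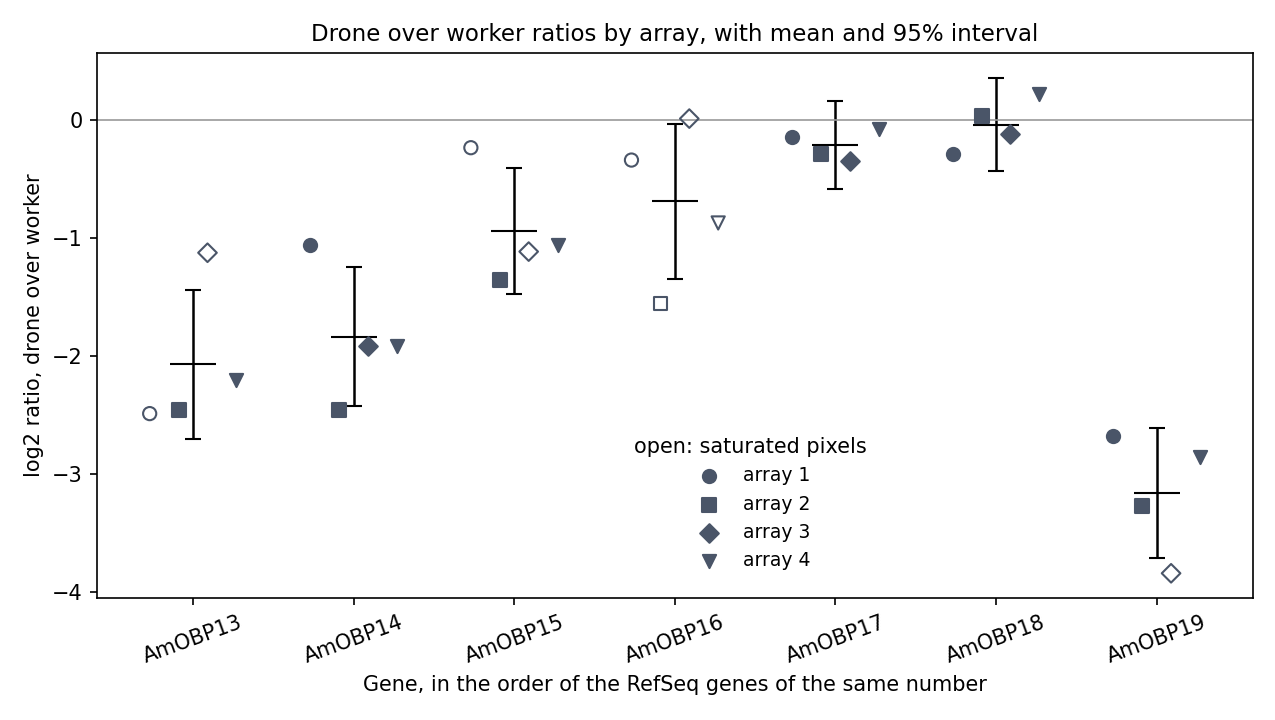
Log2 ratio of drone over worker for each gene on arrays 1 to 4 (symbols, open where a spot held saturated pixels), with the mean and 95% interval over 4 arrays in black. The means run from -2.07 in AmOBP13 to -0.04 in AmOBP18 in the order of the gene numbers, with AmOBP16 saturated and AmOBP18 below the controls, and AmOBP19 stands at -3.16.

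Saturation was common in these genes. Of their 56 spots, 16 held saturated pixels in at least 1 channel (28.6%), against 4.43% of the 2504 spots of all genes. AmOBP16 accounted for 8 of the 16, AmOBP15 for 4, AmOBP13 for 3 and AmOBP19 for 1. Ratios here rest on the median pixel of a spot, so saturation caps a channel only where that median reached the end of the scale. That was so in 8 member spots. A spot capped in worker alone understates the worker excess. The 5 AmOBP13 spots with no saturated pixel had log2 ratios between -2.55 and -2.18, and the 2 spots above 70% had -1.53 and -0.72. For AmOBP15 the 4 unsaturated spots ran from -1.59 to -1.01, and the 2 spots of array 1 were at -0.25 and -0.23. For AmOBP16 the log2 ratio was -1.56 and -1.55 where 31% and 14% of worker pixels were saturated (array 2), and -0.97 and -0.78 at 19% and 57% (array 4). It was -0.56 and -0.12 at 86% and 96% (array 1) and 0.01 in both spots at 85% and 89% (array 3), so the ratio did not follow the saturated share spot by spot. For AmOBP16 the arrays with more saturation, 1 and 3, were also those with worker in Cy5, so saturation and dye cannot be told apart. Arrays 1 and 3 had the same dyes, with worker in Cy5, and differed in saturation. AmOBP13 had log2 ratios of -2.51 and -2.46 on array 1, with at most 2% of pixels saturated, against the -1.53 and -0.72 of array 3. AmOBP15 had -1.13 and -1.11 on array 3, at 5% and 3%, against the -0.25 and -0.23 of array 1, at 15% and 50%. The array 1 spot at 15% had its worker median (42235) below the end of the scale, so its -0.25 was not capped.

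**Figure D3:**
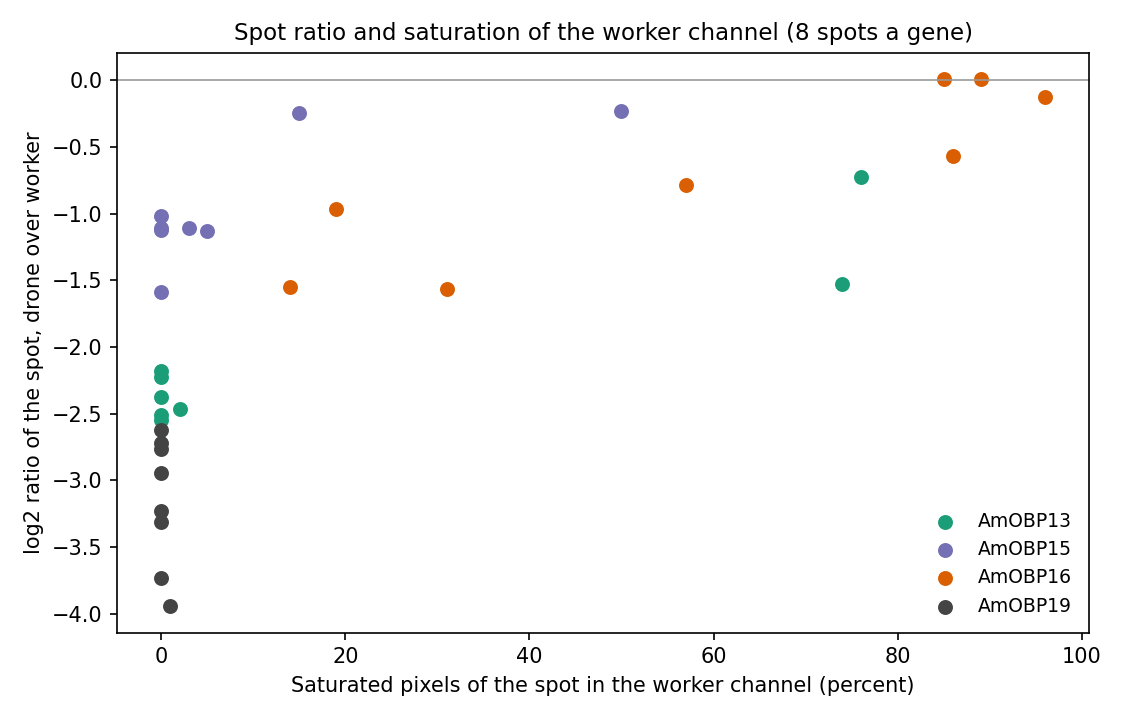
Log2 ratio of each spot against the percent of its worker-channel pixels that were saturated, for the 4 genes with any saturated spot (8 spots a gene). In AmOBP13 and AmOBP15 the 2 spots with the most saturated worker pixels lie nearest to 0 of the 8, in AmOBP16 the 4 spots above 80% lie nearer to 0 than its other 4, and the single AmOBP19 spot with saturation has 1%. The AmOBP15 spot at 15% had its worker median below the end of the scale. The AmOBP16 spots above 80% all had worker in Cy5 and its other spots worker in Cy3, so saturation and dye cannot be told apart there.

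Dye and slide were examined gene by gene. With drone in Cy3 (arrays 1 and 3) the means of AmOBP19, AmOBP13, AmOBP14 and AmOBP15 were -3.26, -1.81, -1.49 and -0.68. With drone in Cy5 (arrays 2 and 4) they were -3.06, -2.33, -2.19 and -1.21. After loess the worker excess was thus present in both orientations for each of the 4 genes. On array 4 the log2 ratio before normalization was -0.74 in AmOBP14 and -0.07 in AmOBP15, with the median gene at -1.15. The Cy5 means of these genes therefore depend on loess. Arrays 3 and 4 share the slide number, 7, in their labels. As a dye swap of their own they gave -3.35, -1.66, -1.91 and -1.09 for the 4 genes, and arrays 1 and 2 gave -2.97, -2.47, -1.76 and -0.80. On arrays 3 and 4 alone only AmOBP19 was called (limma adjusted p = 0.0295), beside 1.6% of the array as higher in worker. On arrays 1 and 2 alone 5 members were called, AmOBP16 being the fifth (limma adjusted p = 0.0117), beside 10.9% of the array. That fit gave all members the same standard error (0.29), so its p does not reflect each gene's own spread. AmOBP16 was at -0.34 on array 1, with the worker medians of its 2 spots at the end of the scale, and at -1.56 on array 2.

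The print position of the probes did not group the genes by ratio. AmOBP15 and AmOBP19 were printed in block 1, with means of -0.94 and -3.16. AmOBP13 and AmOBP17 were in block 9, with -2.07 and -0.22, and AmOBP14 and AmOBP18 in block 5, with -1.84 and -0.04. The spread between duplicate spots of a gene within an array, as an SD of the log2 ratio, was 0.08 in AmOBP18 to 0.29 in AmOBP13. It was smaller than the SD between arrays in all 7 genes, by the least in AmOBP17 (0.11 against 0.12).

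In the RefSeq annotation of assembly Amel_HAv3.1, the genes Obp13 to Obp19 are 7 consecutive genes of 1 linkage group, with 0 other annotated genes between them, and the next gene is Obp21. The match to the array names was by number alone, with 7 of 7 matched, and was not tested by sequence. Only 11 of the 12 other names found a RefSeq gene of their number, so the numbering of array and annotation may differ, and the order below rests on it. The array was designed on an earlier assembly, so no coordinates are given. Taken along that order, the mean log2 ratio was -2.07, -1.84, -0.94, -0.69, -0.22 and -0.04 from AmOBP13 to AmOBP18 and -3.16 at AmOBP19. The AmOBP16 value in this series is limited by saturation, and AmOBP18 was below the controls.

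The rise of the ratio from AmOBP13 to AmOBP18 was noticed in the data and is given as a description. It held on 1 of 4 arrays taken alone, array 4, and in 10 of the 19 other settings with the label-field dyes in which all 6 genes had a value. With spots left out whose foreground median was at the end of the scale, AmOBP16 (-1.26) passed AmOBP15 (-0.94). AmOBP19 was the lowest of the 7 on 4 of 4 arrays and in all 22 other settings with the label-field dyes. Neighbours in the order of means, 6 pairs in all, were compared by an exact permutation test (two-sided, flipping the signs of the 4 array differences). Its smallest possible p is 1 in 8, so no pair could pass the threshold, and the pairs were set by the same means. AmOBP14 lay below AmOBP15 by 0.89 (SD 0.14) and AmOBP19 below AmOBP13 by 1.09 (SD 1.11), each on 4 of 4 arrays and at that smallest value (exact permutation test, adjusted p = 0.375). AmOBP13 and AmOBP14 differed by 0.23 (SD 0.92), less than the spread between arrays. The pairs that hold AmOBP16 or AmOBP18 are not read, for the limits given above.

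**Figure D4:**
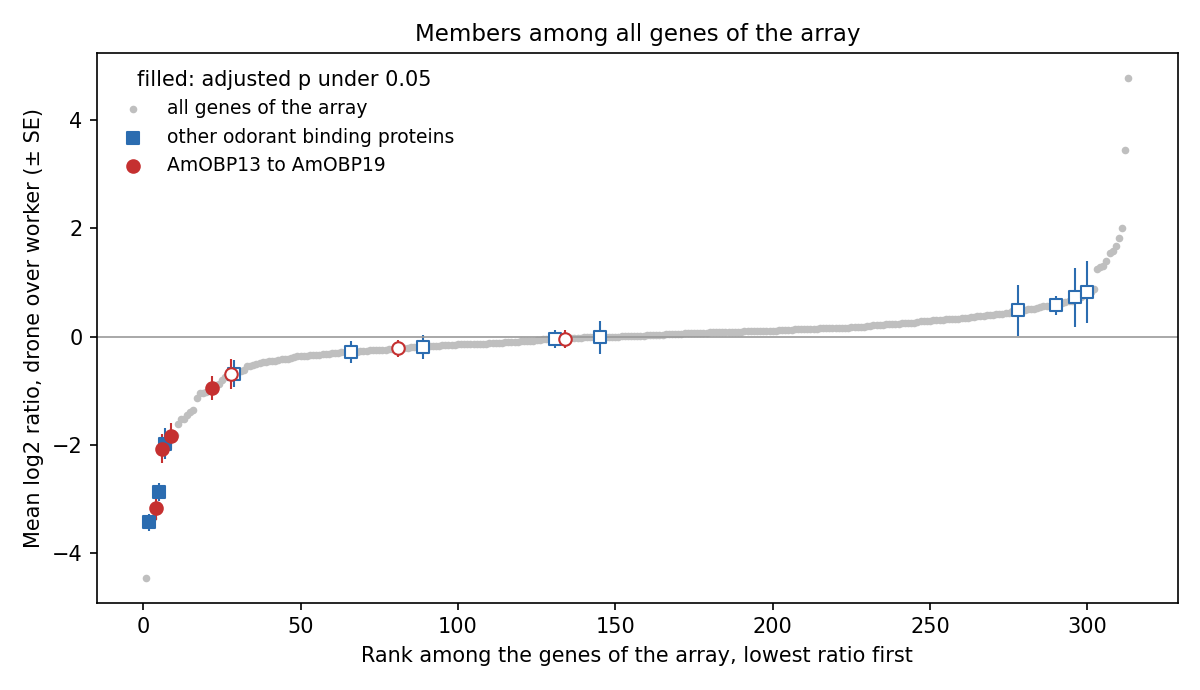
All 313 genes of the array ranked by mean log2 ratio of drone over worker (grey), with AmOBP13 to AmOBP19 in red and the other odorant binding proteins in blue, SE bars, and filled symbols where a gene was called. The 4 called members lie among the 22 lowest ratios, and the highest member is AmOBP18 at -0.04, while 4 other odorant binding proteins lie between 0.48 and 0.82.

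Beside the rest of the family, the members lay further to the worker side as a list. Their median log2 ratio was -0.94, with medians of -0.34, -1.56, -1.12 and -1.06 on arrays 1 to 4, and their range was -3.16 to -0.04. The 12 other odorant binding proteins had a median of -0.12 and a range of -3.43 to 0.82, with 3 higher in worker, 0 higher in drone and 9 not called. Before adjustment 5 of those 12 had a p under 0.05, beside 68 of all 313 genes. The median of all 313 genes was 0.01. The difference between the lists was not tested. Of the 7 members 6 were above the negative controls in drone and the same number in worker, against 7 and 8 of the 12 others and 28.8% and 31% of all genes. With oligo 4 kept among the controls, 3 of the 7 passed in drone and 5 in worker, against 6 and 7 of the 12 others and 28 and 26 of the 313 genes.

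Other soluble carriers and partners of the same pathway, listed for comparison, are given by count. Of 11 genes taken from their names as chemosensory proteins (AmCg) and lipocalins (AmLip), which also carry small hydrophobic molecules, 1 was higher in worker, 1 higher in drone and 9 were not called. Of 5 genes of the olfactory neurons and their surroundings (AmOr002, AmSNMP and 3 G-protein alpha subunits), 0 were called by limma, with a median of 0.34. Their unadjusted p was under 0.05 in 3, beside 68 of all 313 genes.

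For each called member, the 3 genes with the most similar log2 ratios over the 4 arrays were listed, by root mean square distance. AmOBP19 was nearest to the odorant binding proteins AmOBP02 (distance 0.47) and AmOBP11 (0.56) and then to the alpha-arrestin AmAAR2 (0.98). AmOBP14 was nearest to the chemosensory protein gene AmCg5 (0.52), AmOBP04 (0.59) and the tetraspanin AmTspan12 (0.68). AmOBP13 was nearest to the odorant receptors AmOr151 (0.58) and AmOr042 (0.61) and to AmTspan12 (0.72), and AmOBP15 to the P450 AmCyp335B1 (0.46), AmOr150 (0.51) and AmOr044 (0.53). None of these 12 places went to another of the 7 members, but these are few among the 313 genes, so that count is not read as a result. The list rests on 4 arrays and is a description of level and pattern together.

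The calls depended on how ratios were centred. Centred on the median gene without loess, 0 of the 7 passed in limma, where 1.28% of the array was called higher in worker. There 3 of the 7 and 41 of all 313 genes had an unadjusted p under 0.05. The array then split into 4 genes higher in drone and 4 in worker, instead of 14 and 23. With housekeeping genes as the centre, AmOBP19 alone of the 7 passed (limma adjusted p = 0.0234, 1.6% of the array). Centring on genes other than odorant receptors called AmOBP19 and AmOBP13 (4.79% of the array), and so did the ratios without normalization (4.15%). In none of these did AmOBP13, AmOBP14, AmOBP15, AmOBP16 or AmOBP19 change sign, and their log2 ratios stayed between -3.04 and -0.31. The median of all genes itself moved to -0.25 with the housekeeping centre, where AmOBP17 also stood at -0.25, and AmOBP17 was at 0.086 under median centring. As a mean over 4 arrays, loess moved AmOBP13 to AmOBP16 and AmOBP19 to the worker side, by 0.20 in AmOBP16 to 0.30 in AmOBP14 relative to no normalization. Most of that shift came from array 4. There the log2 ratio went from -1.25 in the signals to -2.20 in AmOBP13, and from -0.74 to -1.91 in AmOBP14. It went from -0.07 to -1.06 in AmOBP15, from -0.11 to -0.87 in AmOBP16 and from -1.77 to -2.86 in AmOBP19. On arrays 1 to 3 the changes were smaller and went both ways.

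**Figure D5:**
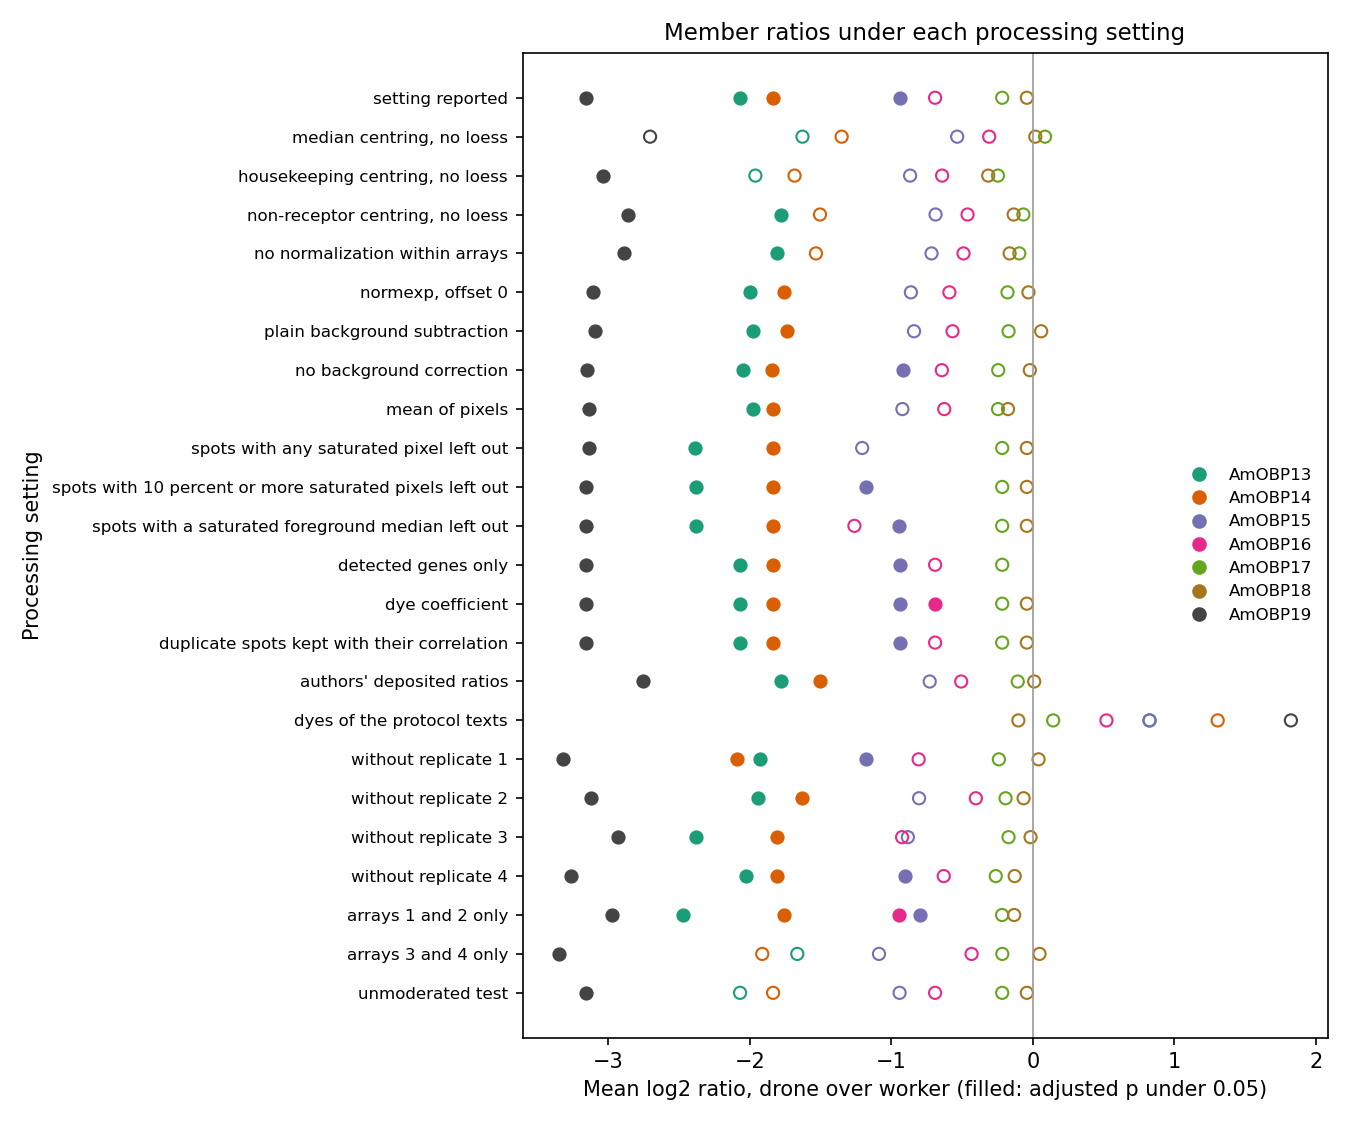
Mean log2 ratio of drone over worker for each gene (colours) under the reported setting and 23 others, filled where the adjusted p was under 0.05. AmOBP19 keeps the lowest ratio in every setting except the dyes of the protocol texts, where 6 of 7 genes turn to the other side of 0.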

How the data were processed

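Per the file headers, the 4 scanner files that the authors deposited hold spot intensity at 635 nm (Cy5) and 532 nm (Cy3) with local background, the percent of saturated pixels per spot, and a quality code, a score per spot. Nothing in them is normalized. The scanner and its software are not given in the sources used here. One more deposited table gives a log2 ratio per probe, made by the authors. Against the scanner values it ran as worker over drone on all 4 arrays (r from -0.98 to -0.91 with drone over worker). Its column medians were -0.02, -0.09, -0.06 and 0.08, and how it was normalized stays unknown. It served as an alternative.

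Foreground medians were corrected with normexp (offset 50) and normalized by loess within arrays in limma 3.58.1 under R 4.3.3. Control spots had weight 0, spots coded as absent (-75) were dropped, and duplicate spots were averaged. The fit (lmFit and eBayes, two-sided) ran on 313 genes and was tested on simulated data. Loess sets the typical ratio to 0 along the brightness range, which hides any change common to most genes. The 4 arrays are the replicates, and their number limits the precision. Every gene named AmOBP with a number of 13 or more is named in the text, with the 3 genes nearest to each called one. Leaving out spots with a saturated median, and fitting arrays 1 and 2 or arrays 3 and 4 alone, were added after seeing the data. The members, lists and tests were chosen with earlier results of these data known. Alternatives that left out saturated spots kept them in the loess curve. RefSeq names were matched by gene number.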

Additional observations from a re-analysis of the deposited data

How the results depend on the processing

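With the label-field dyes AmOBP19 was called in 21 of 22 other settings, AmOBP13 in 18, AmOBP14 in 16 and AmOBP15 in 9, and none of these 4 changed sign. AmOBP16 was called in 2 of the 20 settings that left it a value, and AmOBP17 and AmOBP18 in none. The number of members higher in worker, 4, was 0 under median centring, 1 under housekeeping centring, on arrays 3 and 4 only and in the unmoderated test, and 2 under non-receptor centring and with no normalization. It was 3 to 4 when 1 array was left out. The array's counts of 14 higher in drone and 23 in worker became 4 and 4 under median centring, 2 and 5 under housekeeping centring, 6 and 15 under non-receptor centring, 4 and 13 with no normalization, 2 and 5 on arrays 3 and 4 only, and 8 and 8 in the unmoderated test. They ran from 6 to 14 and from 13 to 29 when 1 array was left out, lowest for both without array 2. The members' median of -0.94 was -1.52 without spots that had any saturated pixel and -1.51 without those at 10% or more, where AmOBP16 had no value, and -1.18 to -0.80 when 1 array was left out. With the dyes of the protocol texts the median was 0.82, 0 members and 0 genes were called, and AmOBP13 was at 0.83, AmOBP14 at 1.31, AmOBP15 at 0.82, AmOBP16 at 0.52, AmOBP17 at 0.14 and AmOBP19 at 1.82. That turn follows from the sign given to arrays 2, 3 and 4. AmOBP17 was at 0.086 under median centring. AmOBP18, below the controls throughout, was at 0.017 under median centring, 0.058 with plain background subtraction, 0.0092 on the authors' deposited ratios and 0.047 on arrays 3 and 4 only, and ran from -0.13 to 0.040 when 1 array was left out. With oligo 4 kept among the negative controls, 3 members were above them in drone instead of 6, and 5 in worker. Where no value above shows it, the cause was not tested. Slide as a random block could not be fitted, since 4 arrays on 3 slides give no estimate of the correlation. No paired analysis was possible because there is 1 group of arrays, and each ratio already pairs a drone with a worker pool.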

Other observations

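In 21 sets of 4 array values (the ratio and both log2 signals of each of the 7 genes), 0 held a value that stood apart by Dixon's criterion, where chance alone marks about 1 set in 20. Array 3 held the highest worker signal of AmOBP13, AmOBP14, AmOBP17 and AmOBP19, and of these AmOBP19 and AmOBP17 had their largest ratios there (-3.84 and -0.35) and AmOBP13 its smallest (-1.13).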
